A study of Homo sapiens with 12 samples.

Results

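A set of 10 imprinted genes that lie outside the IGF2 locus was followed in NCI-H295R cells, an established line from a human adrenocortical carcinoma, a cancer of the steroid-producing outer layer of the adrenal gland. The 10 genes were chosen by symbol as well-known human imprinted genes: GRB10, DLK1, MEG3, PEG3, PEG10, MEST, SNRPN, NDN, PLAGL1 and PHLDA2. The rule uses no measured value, but earlier results of these data were known when the genes were chosen. They are 10 of 60617 genes in the deposited table, and all 10 were among the 20360 genes kept by the filter on low counts. The 12 RNA-seq libraries fall into 4 groups of 3 cultures that the labels call biological replicates. Baseline cells received the solvent DMSO for 96 h. EZH2i cells received 62 µM EPZ-6438 (tazemetostat), an inhibitor of the histone H3 lysine 27 methyltransferase EZH2, for 96 h. CBPi cells received 26 µM PRI-724, which blocks the partnership of β-catenin with the coactivator CBP, for 96 h. FSK cells received solvent for 48 h and then 48 h of forskolin at 10 µM, an activator of adenylyl cyclase that raises cyclic AMP, so their exposure was shorter than that of the others. Both inhibitors were given at the dose that the submitters name as the half-maximal inhibitory one. All groups share 1 cell line in 1 medium, so the spread between replicates is that between cultures of the line and not between tumours.

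An imprinted gene is transcribed mainly or wholly from the copy inherited from a particular parent, and the choice is kept by DNA methylation laid down in egg or sperm at a control region that often governs several neighbours. DLK1, PEG3, PEG10, MEST, SNRPN, NDN and PLAGL1 are known as paternally expressed, MEG3 and PHLDA2 as maternally expressed, and GRB10 switches its parent of origin with tissue and transcript. Many of these genes act on fetal growth and are lowered after birth, and DLK1 is known as a marker of adrenal progenitor cells and of adrenocortical tumours. The libraries measure poly(A)-selected RNA of both copies together, so the parent of origin of a transcript was not measured.

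The genes sit in 8 regions of the genome (GRCh38, GENCODE 29 annotation). DLK1 (chromosome 14, 100725705 to 100738224, plus strand) and MEG3 (chromosome 14, 100779410 to 100861031, plus strand, a long non-coding RNA) share a cluster, with 41.2 kb between them. NDN (chromosome 15, 23685400 to 23687330, minus strand) and SNRPN (chromosome 15, 24823637 to 24978723, plus strand) lie 1136.3 kb apart in the Prader-Willi region. Another 3 lie on chromosome 7, far from each other: GRB10 (50590063 to 50793462, minus strand), PEG10 (94656325 to 94669695, plus strand) and MEST (130486171 to 130506465, plus strand). PLAGL1 is on chromosome 6 (143940300 to 144064599, minus strand) and PEG3 on chromosome 19 (56810077 to 56840728, minus strand). PHLDA2 (chromosome 11, 2928273 to 2929455, minus strand) belongs to the imprinted domain of the KCNQ1OT1 control region, 42.5 kb from CDKN1C and 769.6 kb from IGF2.

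RefSeq (GRCh38.p14) gave promoter windows for 6 of the 10 genes, 23 windows in all, and 4 of them are printed 5′ to 3′ on the strand of the gene. For each gene printed, this is the window at the RefSeq start farthest upstream, cut where annotated exons begin, except for MEG3. Other windows of GRB10 and PLAGL1 are not printed, among them 1 of PLAGL1 at the start of HYMAI (chr6:144008260-144008509, 32 CpG dinucleotides). Whether the printed windows carry an imprint was not measured. GRB10, PLAGL1 and NDN are shown as examples of genes called in the same direction under every treatment and past 1.5-fold under at least 1 (MEST, also called lower under every treatment but not past 1.5-fold, is left out), with the CpG dinucleotides, the sites of DNA methylation, in capitals. MEG3 is shown for the cyclic AMP response element TGACGTCA, in capitals, which is known to bind the CREB factors that forskolin activates.
GRB10, chr7:50793463-50793703, minus strand: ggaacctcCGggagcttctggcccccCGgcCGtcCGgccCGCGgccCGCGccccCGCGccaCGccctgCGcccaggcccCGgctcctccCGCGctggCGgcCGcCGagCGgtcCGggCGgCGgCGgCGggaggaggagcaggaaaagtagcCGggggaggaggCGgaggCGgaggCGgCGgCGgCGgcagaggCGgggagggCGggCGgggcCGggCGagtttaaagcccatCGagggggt
PLAGL1, chr6:144064600-144064849, minus strand: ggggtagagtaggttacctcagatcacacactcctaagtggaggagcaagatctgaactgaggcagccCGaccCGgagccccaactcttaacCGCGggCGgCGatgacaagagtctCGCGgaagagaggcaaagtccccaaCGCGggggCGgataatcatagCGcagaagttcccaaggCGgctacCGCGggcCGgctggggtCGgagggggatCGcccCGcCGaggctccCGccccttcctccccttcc
NDN, chr15:23687331-23687555, minus strand: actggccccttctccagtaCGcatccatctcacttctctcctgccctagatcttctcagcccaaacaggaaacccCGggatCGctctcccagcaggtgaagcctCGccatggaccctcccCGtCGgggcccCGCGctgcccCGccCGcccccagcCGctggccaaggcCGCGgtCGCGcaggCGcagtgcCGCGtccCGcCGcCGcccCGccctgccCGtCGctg
MEG3, chr14:100825858-100826107, plus strand: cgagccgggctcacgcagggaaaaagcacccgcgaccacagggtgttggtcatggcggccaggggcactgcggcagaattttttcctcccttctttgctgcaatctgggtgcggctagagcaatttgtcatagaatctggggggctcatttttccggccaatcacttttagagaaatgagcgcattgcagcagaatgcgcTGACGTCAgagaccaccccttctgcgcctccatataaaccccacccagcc
The GRB10 window holds 37 CpG dinucleotides in 241 bases at 81.7% G and C, the NDN window 24 in 225 bases at 72.4%, the PLAGL1 window 21 in 250 bases at 64.8%, and the MEG3 window 13 in 250 bases at 56.4%. Over 35116 RefSeq windows of 250 bases the median was 11 CpG dinucleotides, the upper quartile 23 and the median G and C content 58%. The MEG3 window lies inside the span that GENCODE gives for MEG3, upstream of a later listed start, with 42 bases between the element and that start. TGACGTCA, searched on both strands, was in 1.65% of all windows and in 3 of the members' 23, all MEG3 windows that overlap each other. TGCCGC, the core that the imprint-protecting factor ZFP57 reads, was in 12.7% of all windows and in 9 of the members' windows, with at least 1 in each of the 6 genes. The 9 include the same 3 overlapping MEG3 windows. Every gene but NDN has several windows, so the count by gene cannot be set against the share of windows. CAAGGTCA, a site of the adrenal factor SF-1 (1.14% of windows), and CTTTGAT, a site of the TCF/LEF factors (2.26%), were in 0 of the members' windows. A match or its absence here describes letters only. No promoter is printed for DLK1, PEG3, PEG10 and PHLDA2.

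In untreated cells the genes span from among the most abundant transcripts to near the limit of detection. Levels between genes are compared as counts-per-million (CPM) per kb of gene length, with libraries scaled by the trimmed mean of M-values (TMM). DLK1 stood at 872.6 CPM per kb, above 99.9% of the 20360 tested genes and 22nd in rank. PEG10 stood at 150.9 CPM per kb (above 98.7% of genes), NDN at 82.1 (97.2%), MEST at 44.7 (94%), PEG3 at 41.0 (93.3%), PLAGL1 at 35.8 (92.1%), MEG3 at 20.56 (85.5%) and SNRPN at 12.4 (77%). The place of MEG3 depends on its deposited length of 23224 bases: in CPM without length it stood at 477.5, above PEG3 (400.8) and PLAGL1 (312.8). GRB10 at 3.89 CPM per kb was close to the median gene, 3.34, and PHLDA2 at 0.538 was above 20.4% of genes. Thus 8 of the 10 lay above at least 77% of the tested genes in this line, and the other 2, GRB10 and PHLDA2, are the genes with the largest rises.

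**Figure D1:**
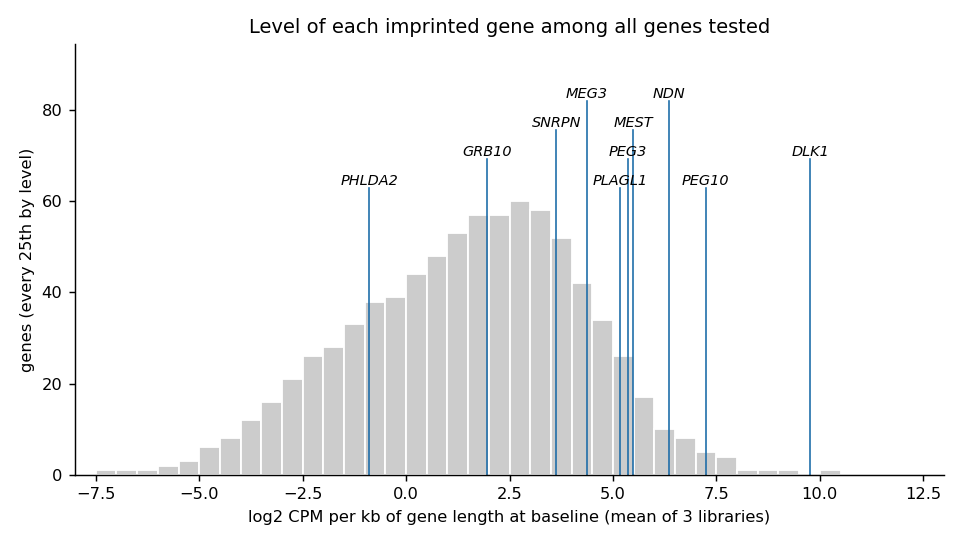
Level of each imprinted gene at baseline on the log2 CPM per kb axis (blue lines, mean of 3 libraries), over a histogram of every 25th tested gene by level (grey, number of genes). DLK1 lies at the far right at 872.6 CPM per kb, GRB10 near the median of 3.34 and PHLDA2 to its left at 0.538.

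The treatments moved most of the 10 genes, in both directions: GRB10 rose under all 3, and PEG3, PLAGL1, PEG10, NDN and MEST fell under all 3. Calls are by edgeR's quasi-likelihood test, adjusted over all 20360 genes, at a threshold of 0.05. EZH2i against baseline gave 2 higher (GRB10, PHLDA2), 6 lower (DLK1, PEG3, PEG10, MEST, NDN, PLAGL1) and 2 not passed (MEG3, SNRPN). Over all tested genes 29.5% were called higher and 28.3% lower in that comparison. The median log2 fold change was -0.35 over the 10 and 0.02 over all tested genes. With CBPi 2 were higher (GRB10, SNRPN), 6 lower (again DLK1, PEG3, PEG10, MEST, NDN and PLAGL1) and 2 not passed (MEG3, PHLDA2), against 29.8% higher and 29% lower of all genes, with medians of -0.36 and 0.015. With FSK 5 were higher (GRB10, PHLDA2, DLK1, MEG3, SNRPN) and 5 lower (PEG3, PEG10, MEST, NDN, PLAGL1), against 25.5% higher and 25.1% lower of all genes, with medians of 0.005 and 0.015. With scaling by library size alone, the FSK comparison gave 4119 genes higher and 6257 lower in place of 5197 and 5102, and 3 of the 10 higher, since DLK1 and MEG3 were then not called. The higher count also fell to 3 of the 10 under FSK without baseline replicate 2 or 3 or FSK replicate 1 or 2, and to 1 under CBPi without baseline replicate 1 or CBPi replicate 3. The 3 comparisons share the baseline libraries, so a direction that recurs in them is not independent evidence. The majority of tested genes were called in each, so a call on its own sets no member apart from other genes. In bulk RNA, fewer cells that express a gene and less of its RNA per cell cannot be told apart.

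Fewer genes pass the stricter test against a change of 1.5-fold, so the shares over all genes are smaller there. Most of the members lay above at least 77% of the tested genes at baseline, and genes with more reads pass such a test more easily. A background of genes at a like level was not taken, so these shares do not set the members apart. With EZH2i 2 members were higher (GRB10, PHLDA2) and 3 lower (DLK1, PEG10, PLAGL1), against 6.62% and 4.79% of all genes. With CBPi 1 was higher (GRB10) and 4 lower (PEG3, PEG10, NDN, PLAGL1), against 6.09% and 6.14%. With FSK 2 were higher (GRB10, PHLDA2) and 2 lower (PEG3, PLAGL1), against 5.34% and 6.45%. Without baseline replicate 1 the EZH2i count of higher members was 1, GRB10. Of the 4 lower under CBPi, PEG3, NDN and PLAGL1 lay close to the threshold (edgeR adjusted p = 0.0221, 0.0275 and 0.0122), and PEG10 did not (1.64e-08). Without baseline replicate 1 only PEG10 passed, and without CBPi replicate 3 only PEG10 and NDN did.

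**Figure D2:**
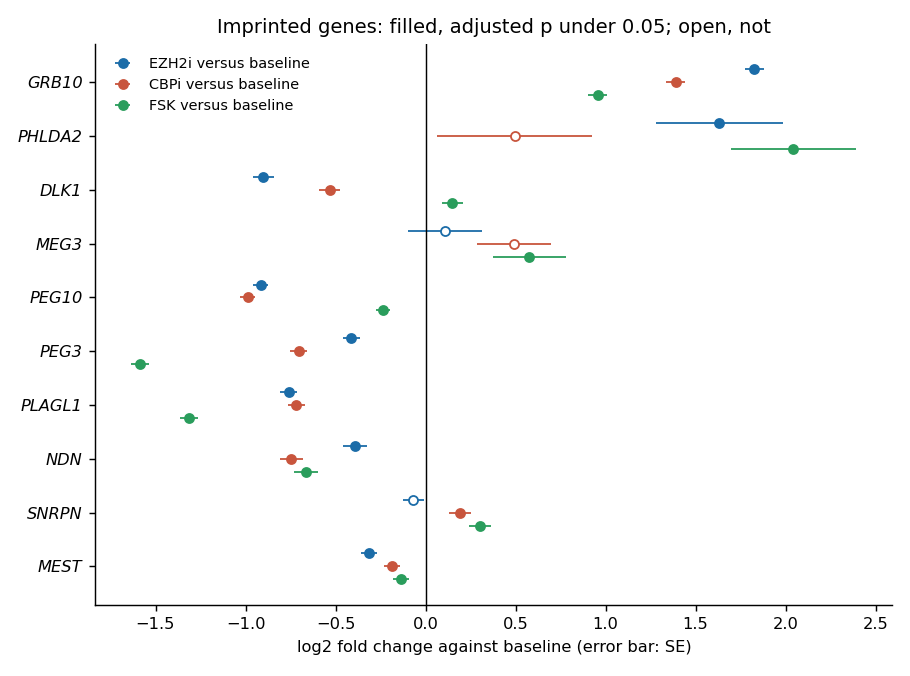
Log2 fold change against baseline (horizontal axis, bars give the SE of the fit) of the 10 imprinted genes under EZH2i (blue), CBPi (red) and FSK (green); filled points have an adjusted p under 0.05. GRB10 lies right of 0 in all 3 and PEG3, PLAGL1, PEG10, NDN and MEST left of 0 in all 3, with PEG3 under FSK farthest left at -1.59.

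GRB10 encodes an adaptor protein that binds the insulin and IGF1 receptors and dampens their signal. Its baseline libraries held 37.7, 38.8 and 37.8 CPM. The EZH2i libraries held 142.6, 138.7 and 124.0 CPM, the CBPi libraries 100.9, 99.4 and 99.1 CPM, and the FSK libraries 77.0, 71.3 and 73.4 CPM. The 4 groups did not overlap and ranked EZH2i, CBPi, FSK, baseline. Against baseline (38.1 ± 0.57 CPM, SD, n = 3), GRB10 rose 3.55-fold under EZH2i (log2 fold change 1.83 ± 0.05, SE; edgeR adjusted p = 3.44e-16), 2.62-fold under CBPi (1.39 ± 0.05; edgeR adjusted p = 2.45e-14) and 1.94-fold under FSK (0.96 ± 0.05; edgeR adjusted p = 7.9e-12). Each of these passed the test against a change of 1.5-fold, and each treatment also differed from the next in the ranking, by 0.44 between EZH2i and CBPi (edgeR adjusted p = 6.09e-07) and by 0.43 between CBPi and FSK (edgeR adjusted p = 3.68e-07) on the log2 scale. It is the 1 gene of the 10 that was higher than baseline under all 3 treatments. DDC, its imprinted neighbour, stayed at a mean of at most 0.0985 CPM in every group and was not tested.

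PHLDA2, a small pleckstrin-homology protein that restrains placental growth, was sparse: its counts were 5, 15 and 15 reads at baseline, 55, 34 and 55 under EZH2i, 11, 9 and 32 under CBPi, and 53, 40 and 53 under FSK. The EZH2i and FSK libraries lay above every baseline library, while the CBPi libraries overlapped baseline, with 1 of them well above the other two. In CPM the means were 0.495 ± 0.244 at baseline, 1.55 ± 0.371 under EZH2i, 0.673 ± 0.39 under CBPi and 2.07 ± 0.372 under FSK (SD, n = 3). PHLDA2 rose 3.1-fold under EZH2i (log2 1.63 ± 0.35; edgeR adjusted p = 0.000605) and 4.12-fold under FSK (2.04 ± 0.35; edgeR adjusted p = 6.43e-05), and the CBPi difference of 0.49 ± 0.43 did not pass (edgeR adjusted p = 0.336). The low-count filter asked for 0.398 CPM, which 2 of 3 baseline, 2 of 3 CBPi and all EZH2i and FSK libraries exceeded. Without baseline replicate 1, its lowest library, the EZH2i rise no longer passed the 1.5-fold test, although it still passed the test against no change (1.31; edgeR adjusted p = 0.00457).

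On the paternal copy of the PHLDA2 domain, transcription of the long non-coding RNA KCNQ1OT1 is known to silence neighbouring genes. CDKN1C, an inhibitor of cyclin-dependent kinases and a neighbour of PHLDA2, rose under EZH2i from 3.47 ± 0.479 to 6.02 ± 0.798 CPM (log2 0.78; edgeR adjusted p = 3.67e-05) and was at 3.11 ± 0.334 CPM under CBPi and 3.13 ± 0.192 under FSK, neither of which passed. KCNQ1OT1 itself rose under EZH2i, from 5.61 ± 3.05 to 12.5 ± 2.28 CPM (log2 1.18; edgeR adjusted p = 0.0243), a call lost without baseline replicate 2 or 3 or EZH2i replicate 1 (edgeR adjusted p = 0.0889, 0.0814 and 0.0798) and with only the 2 groups fitted (0.0565). OSBPL5, a lipid transfer protein named to complete the domain, rose under EZH2i by 0.73 and fell under FSK by 0.42 on the log2 scale (edgeR adjusted p = 0.000186 and 0.0385). KCNQ1, a potassium channel, rose under EZH2i (0.88) and under FSK (3.03, from 0.594 ± 0.0664 to 4.92 ± 0.399 CPM; edgeR adjusted p = 1.84e-11) and fell under CBPi, by 0.92, the last not called without baseline replicate 1 or 2 or CBPi replicate 2 (edgeR adjusted p = 0.0511, 0.0619 and 0.0753). Under EZH2i, then, 5 of the 6 tested genes of the domain were called higher, PHLDA2 included, where 29.5% of all tested genes were; the domain was singled out after its values were seen, and no test of it was made. SLC22A18, named here to complete that count, was the other, at 1.41 ± 0.353 CPM at baseline and 2.06 ± 0.515 CPM under EZH2i, and did not pass. Under CBPi and FSK the calls in the domain did not share a direction.

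DLK1, a membrane-bound relative of the Notch ligands, was the most abundant of the 10. Baseline libraries held 4449, 4651 and 4636 CPM, EZH2i libraries 2374, 2466 and 2515 CPM, CBPi libraries 3353, 2764 and 3373 CPM, and FSK libraries 4970, 4930 and 5311 CPM. Both inhibitor groups lay below every baseline library and did not overlap each other, and FSK lay just above baseline. DLK1 fell 1.87-fold under EZH2i (log2 -0.90 ± 0.06; edgeR adjusted p = 5.11e-10) and 1.45-fold under CBPi (-0.53 ± 0.06; edgeR adjusted p = 4.32e-07), and only the first passed the 1.5-fold test. The 1.11-fold rise under FSK (0.15 ± 0.06; edgeR adjusted p = 0.0443) was at the edge of the threshold: it was not called with DESeq2 (adjusted p = 0.0607), with scaling by library size alone (edgeR adjusted p = 0.257) or without any single one of the 6 libraries (edgeR adjusted p from 0.055 to 0.173). The fall under EZH2i exceeded that under CBPi by 0.37 on the log2 scale (edgeR adjusted p = 6.36e-05).

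MEG3, the maternally expressed long non-coding RNA of the cluster that holds DLK1, was not lower under the inhibitors. Its libraries held 546.5, 438.6 and 447.3 CPM at baseline, 510.5, 457.4 and 575.8 under EZH2i, 566.3, 859.5 and 585.8 under CBPi, and 696.2, 869.9 and 570 under FSK. In the baseline, CBPi and FSK groups 1 library stood well above the others, and EZH2i overlapped baseline, while the lowest CBPi and FSK libraries lay above the highest baseline library by little. The EZH2i difference was 0.11 ± 0.20 on the log2 scale (edgeR adjusted p = 0.681) and the CBPi difference 0.49 ± 0.21 (edgeR adjusted p = 0.0681; DESeq2 adjusted p = 0.0461; limma voom adjusted p = 0.011). With FSK MEG3 rose 1.49-fold (0.58 ± 0.21; edgeR adjusted p = 0.043). That call was lost without baseline replicate 2 or 3 (edgeR adjusted p = 0.12 and 0.115), without FSK replicate 1 or 2 (0.0831 and 0.148), with only the 2 groups fitted (0.0734) and with scaling by library size alone (0.075).

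The balance between both genes of the cluster was read as MEG3 CPM per kb in percent of DLK1 CPM per kb within each library. Its size depends on the deposited gene lengths, 23224 bases for MEG3 and 5247 for DLK1, which are the same in every library. Without length the baseline means were 477.5 CPM for MEG3 and 4578 CPM for DLK1. The percentage per kb was 2.36 ± 0.36% at baseline (2.13 to 2.78), 4.74 ± 0.5% under EZH2i (4.19 to 5.17), 4.92 ± 1.8% under CBPi (3.82 to 7.03) and 3.19 ± 0.78% under FSK (2.42 to 3.99; SD, n = 3). Both inhibitor groups lay above every baseline library, and FSK overlapped baseline. A two-sided exact permutation test on the log2 ratio against baseline gave p = 0.1 for EZH2i, 0.1 for CBPi and 0.2 for FSK (0.15, 0.15 and 0.2 after Benjamini-Hochberg adjustment over the 3 tests), where 0.1 is the smallest p that 3 against 3 libraries can give. MEG8, a non-coding RNA further along the cluster, fell under EZH2i by 0.25 and rose under FSK by 0.26 on the log2 scale (edgeR adjusted p = 0.0147 and 0.0122). The EZH2i call was lost without baseline replicate 2 or EZH2i replicate 2 (edgeR adjusted p = 0.0662 and 0.0746), and the FSK call without baseline replicate 3 or FSK replicate 2 (0.0565 and 0.11) and with scaling by library size alone (0.0648). MEG9 passed in none of the 3 comparisons with baseline (14.1 ± 2.39, 12.6 ± 1.33, 15.1 ± 5.19 and 21.03 ± 5.57 CPM). RTL1, the retrotransposon-derived coding gene opposite these RNAs, and DIO3 were at most 0.0856 CPM in every group mean and were not tested.

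The spread of MEG3 between replicates was shared by other long RNAs in 3 of the 4 groups, and by only some of them under EZH2i. The libraries above their group mean for MEG3 in 3 of the groups were baseline replicate 1 (114% of the mean), CBPi replicate 2 (128%) and FSK replicate 2 (122%). In those libraries MEG9, KCNQ1OT1, MALAT1 and NEAT1 were also above their group means, MALAT1 at 210, 501 and 305.5 CPM against group means of 168.9, 402.2 and 245 CPM. MALAT1 and NEAT1, abundant RNAs retained in the nucleus, and MEG9 were added to this description after their values were seen. DLK1, a coding neighbour, was lowest of its group in the same 3 libraries, at 4449, 2764 and 4930 CPM. CBPi replicate 2 also stood apart from its group over all genes, since its counts gave 13.3 and 14.5 as chi-square over degrees of freedom against its partners, where the other 10 replicate pairs gave 2.71 to 7.34. Without it the MEG3 difference between CBPi and baseline was 0.26 on the log2 scale (edgeR adjusted p = 0.276), and the fall of DLK1 under CBPi was -0.46 (edgeR adjusted p = 1.2e-09). The EZH2i group shared the pattern only in part. In replicate 3, its library with the most MEG3 (112% of the mean), MEG9 stood at 111% and NEAT1 at 105%. KCNQ1OT1 stood at 88.9% there, MALAT1 at 99.7% and DLK1 at 103%, the highest of its group. The part of RNA preparation in the MEG3 values was not tested.

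**Figure D3:**
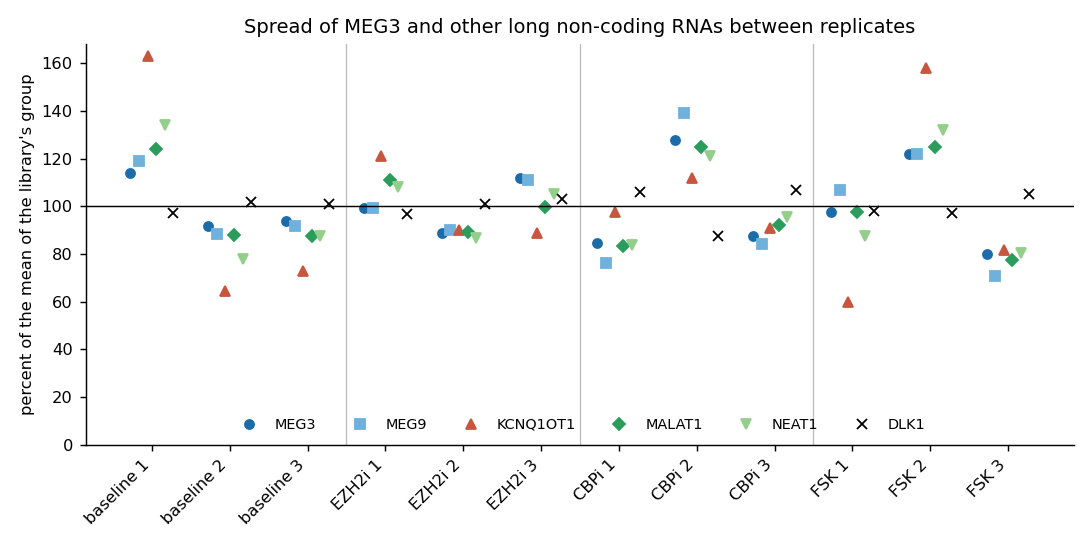
Each library's value in percent of the mean of its group (vertical axis) for 5 long non-coding RNAs and for DLK1 (crosses), by library along the horizontal axis. MEG3 sits at 114% in baseline replicate 1, 128% in CBPi replicate 2 and 122% in FSK replicate 2, where the other non-coding RNAs are also above 100%.

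A group of 5 genes was below baseline under all 3 treatments: PEG3, PLAGL1, PEG10, NDN and MEST. PEG3, a zinc finger protein, held 431, 395.1 and 376.4 CPM at baseline, 310.3, 304.4 and 288.9 under EZH2i, 252.7, 247.4 and 238.5 under CBPi, and 130.6, 136.9 and 133.3 under FSK. No groups overlapped, and the order baseline, EZH2i, CBPi, FSK was separated at every step. PEG3 fell 3-fold under FSK (log2 -1.59 ± 0.05; edgeR adjusted p = 4.48e-16), 1.63-fold under CBPi (-0.70 ± 0.05; edgeR adjusted p = 1.05e-10) and 1.33-fold under EZH2i (-0.41 ± 0.05; edgeR adjusted p = 2.54e-07). The CBPi fall passed the 1.5-fold test (edgeR adjusted p = 0.0221), but not without baseline replicate 1 or CBPi replicate 3 (0.154 and 0.0881). Its fall under FSK was the largest of any member against baseline. ZIM2, which shares 12.9% of the PEG3 exon bases on the same strand, followed with -0.46, -0.75 and -1.53 under EZH2i, CBPi and FSK, and stood at 8.24, 7.97, 8.0 and 8.57% of PEG3 in the 4 groups (baseline, EZH2i, CBPi, FSK). MIMT1, a non-coding RNA of the cluster, fell as well, by 0.89, 0.96 and 1.44 on the log2 scale from 1.82 ± 0.18 CPM (edgeR adjusted p = 0.00448, 0.00411 and 0.000268). Both PEG3 and ZIM2 held fractional counts in 10 libraries, with matching fractions, such as 9451.5 and 808.5 in baseline replicate 1. Some reads thus look to have been divided between both genes, so the ZIM2 values are not independent of PEG3.

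PLAGL1, a zinc finger transcription factor that slows cell growth and sits at the locus of transient neonatal diabetes, held 325.2, 311.9 and 301.2 CPM at baseline. It held 179.1, 185.4 and 189.4 CPM under EZH2i, 182.9, 205.7 and 181.4 under CBPi, and 123.4, 128.7 and 125.7 under FSK. All treated libraries lay below all baseline libraries, FSK lay lowest, and the 2 inhibitor groups overlapped. The fall was 2.48-fold under FSK (log2 -1.31 ± 0.05; edgeR adjusted p = 8.94e-15), 1.69-fold under EZH2i (-0.76 ± 0.05; edgeR adjusted p = 4.34e-11) and 1.65-fold under CBPi (-0.72 ± 0.05; edgeR adjusted p = 9.47e-11), and each passed the 1.5-fold test. For CBPi that pass was lost without baseline replicate 1 or CBPi replicate 1 or 3 (edgeR adjusted p = 0.0538, 0.0566 and 0.0706). EZH2i and CBPi differed by -0.04 ± 0.05 (edgeR adjusted p = 0.519). HYMAI, the non-coding RNA that starts within PLAGL1 and is imprinted with it, fell by 0.69, 0.81 and 1.36 under EZH2i, CBPi and FSK and kept a level of 5.34 to 5.9% of PLAGL1 in the group means. The annotation gives both genes 289 shared exon bases, 3.3% of those of PLAGL1. Both held fractional counts in the same 4 libraries, such as 7132.5 for PLAGL1 and 423.5 for HYMAI in baseline replicate 1. Some reads thus look to have been divided between them, so the HYMAI values are not fully independent of PLAGL1.

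PEG10, a gene derived from a retrotransposon and needed for the placenta, held 1056, 1009 and 962.4 CPM at baseline, 546.1, 535.9 and 521.6 under EZH2i, 507.5, 522.5 and 497.5 under CBPi, and 831.7, 850.5 and 887 under FSK. The 2 inhibitor groups sat together at about the same level, while FSK lay between them and baseline. PEG10 fell 1.98-fold under CBPi (log2 -0.99 ± 0.04; edgeR adjusted p = 7.3e-14), 1.89-fold under EZH2i (-0.92 ± 0.04; edgeR adjusted p = 2.38e-13) and 1.18-fold under FSK (-0.24 ± 0.04; edgeR adjusted p = 5.88e-05). The difference between EZH2i and CBPi was 0.07 ± 0.04 (edgeR adjusted p = 0.177). SGCE, a muscle membrane glycoprotein whose start lies 247 bases from that of PEG10 on the other strand, fell by 0.63, 0.48 and 0.61 under EZH2i, CBPi and FSK (80.04 ± 4.33 CPM at baseline), so under FSK it fell more than PEG10 did on this scale, a difference that was not tested.

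Farther out in the PEG10 cluster the genes parted under forskolin. TFPI2, a secreted protease inhibitor, fell from 62.2 ± 2.06 CPM to 28.4 ± 1.12 under EZH2i and 39.9 ± 2.96 under CBPi, and rose to 698.8 ± 46 CPM under FSK (log2 3.49; edgeR adjusted p = 4.26e-20). CALCR, the calcitonin receptor, fell by 1.62 under EZH2i and 1.11 under CBPi from 3.74 ± 0.231 CPM (edgeR adjusted p = 8.57e-09 and 1.34e-06) and did not pass under FSK (3.06 ± 0.172 CPM).

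NDN encodes necdin, a member of the MAGE family linked to neuronal survival. It held 134.4, 131 and 135.4 CPM at baseline, 101.2, 106.4 and 97.7 under EZH2i, 84.9, 68.9 and 85.2 under CBPi, and 83.1, 79.5 and 90.01 under FSK. All treated libraries lay below baseline, and CBPi and FSK overlapped. The fall was 1.68-fold under CBPi (log2 -0.75 ± 0.07; edgeR adjusted p = 1.24e-08), 1.59-fold under FSK (-0.67 ± 0.07; edgeR adjusted p = 6.48e-08) and 1.31-fold under EZH2i (-0.39 ± 0.06; edgeR adjusted p = 3.74e-05). The CBPi fall passed the 1.5-fold test and the FSK fall did not (edgeR adjusted p = 0.0275 and 0.243), but the first did not pass without baseline replicate 1 or 3 or CBPi replicate 2 (edgeR adjusted p = 0.0559, 0.0712 and 0.151), and the second passed with scaling by library size alone (0.0295). In the test against no change, CBPi and FSK differed by -0.08 ± 0.07 (edgeR adjusted p = 0.33).

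SNRPN, a core protein of the splicing machinery from the same region, moved little and not with NDN. Its libraries held 39.3, 43.5 and 44.3 CPM at baseline, 38.5, 42.5 and 40.3 under EZH2i, 48.8, 46.2 and 50.07 under CBPi, and 55.1, 49.2 and 52.6 under FSK. EZH2i overlapped baseline, and CBPi and FSK lay above it. SNRPN rose 1.23-fold under FSK (log2 0.30 ± 0.06; edgeR adjusted p = 0.000269) and 1.14-fold under CBPi (0.19 ± 0.06; edgeR adjusted p = 0.0102). The CBPi call was lost without baseline replicate 1 (edgeR adjusted p = 0.074) or CBPi replicate 3 (0.0505). With EZH2i the difference was -0.07 ± 0.06 (edgeR adjusted p = 0.352).

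SNRPN counts are uncertain, because 33.6% of its exon bases belong also to other annotated genes, 23.8% to SNURF. SNURF stood at 94.1 to 95.5% of SNRPN in every group. Both genes held fractional counts in all 12 libraries, such as 861.66 for SNRPN and 808.49 for SNURF in baseline replicate 1. Some reads thus look to have been divided between genes, so the SNURF values are not independent of SNRPN. SNRPB, the paralogue of SNRPN, fell under both inhibitors, by 0.67 under EZH2i and 0.83 under CBPi from 501.2 ± 36.4 CPM (edgeR adjusted p = 7.05e-07 and 5.62e-08). SNHG14, the long host transcript that runs on from SNRPN, rose under all 3 treatments, from 50.8 ± 5.27 CPM to 72.3 ± 1.53 under EZH2i, 90.9 ± 5.85 under CBPi and 85.02 ± 4.13 under FSK (log2 0.51, 0.84 and 0.74; edgeR adjusted p = 1.04e-06, 8.47e-10 and 6.06e-09). PWAR5, within the same stretch, rose under CBPi by 0.99 and under FSK by 0.65, the latter not called without baseline replicate 3 or FSK replicate 2 or 3 (edgeR adjusted p = 0.101, 0.145 and 0.0637). UBE3A, the ubiquitin ligase of Angelman syndrome at the far end, rose by 0.13 with each inhibitor (edgeR adjusted p = 0.00428 and 0.00506), from 183.9 ± 1.42 CPM. MAGEL2, the nearest relative of NDN in the region, passed in none of the comparisons with baseline (14.4 ± 0.78, 14.4 ± 0.588, 13.4 ± 1.75 and 12.8 ± 0.8 CPM), so within 1 imprinted region NDN fell, SNHG14 rose and MAGEL2 was not called.

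MEST, an enzyme of the α/β-hydrolase fold family, had the smallest ratio of highest to lowest group mean of the 10. It held 207.7, 217.7 and 217.6 CPM at baseline, 168, 170.5 and 178.6 under EZH2i, 183, 196 and 185.9 under CBPi, and 194.7, 188.2 and 201.9 under FSK. Every treated library lay below every baseline library. MEST fell 1.24-fold under EZH2i (log2 -0.31 ± 0.04; edgeR adjusted p = 2.64e-06), 1.14-fold under CBPi (-0.19 ± 0.04; edgeR adjusted p = 0.000849) and 1.1-fold under FSK (-0.14 ± 0.04; edgeR adjusted p = 0.0109), and the last was not called without FSK replicate 2 (-0.11; edgeR adjusted p = 0.056). Antisense genes overlap 27.4% of its exon bases, among them MESTIT1 and COPG2, and the sources used here do not say whether counting used strand. COPG2, a coat protein of transport vesicles that ends against MEST, fell under EZH2i by 0.48 (38.3 ± 1.36 to 27.4 ± 0.704 CPM; edgeR adjusted p = 9.21e-07) and passed in neither other comparison (35.9 ± 1.81 and 35.8 ± 2.6 CPM). CPA4, a carboxypeptidase near MEST, fell under EZH2i and CBPi by 0.84 and 0.70 and rose under FSK by 1.58 (edgeR adjusted p = 0.00649, 0.0229 and 6.65e-07), from 1.05 ± 0.22 CPM. The CBPi call of CPA4 was lost with DESeq2 (adjusted p = 0.0567) and without baseline replicate 1 or 2 or CBPi replicate 1 or 2 (edgeR adjusted p from 0.05 to 0.0922).

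**Figure D4:**
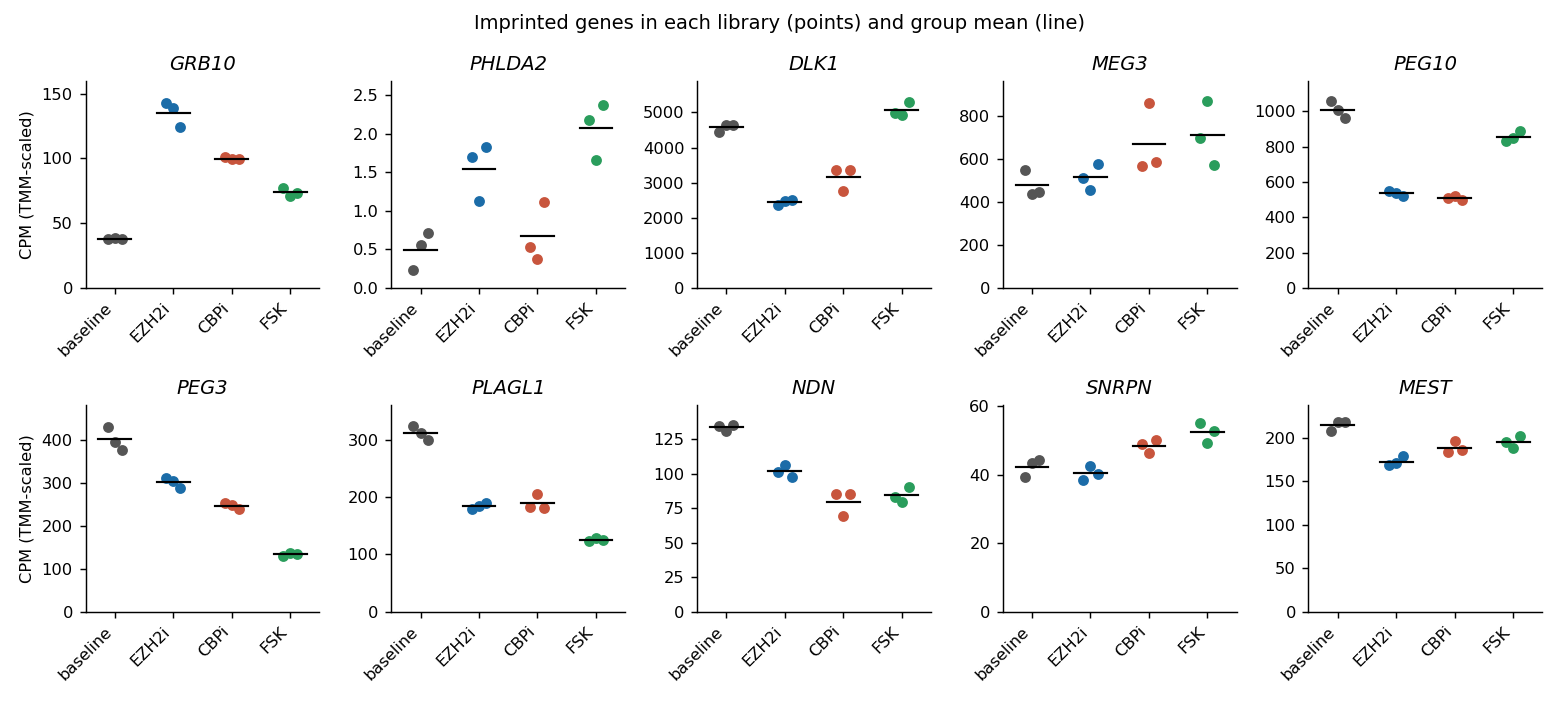
CPM (TMM-scaled, linear axes from 0) of each of the 10 imprinted genes in the 12 libraries (points) with the mean of each group (line). GRB10 is lowest at baseline, near 38.1 CPM, PEG3 and PLAGL1 are lowest under FSK, and MEG3 and PHLDA2 show the widest spread within groups.

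The treatments were also compared with each other. Between EZH2i and CBPi 4 members were higher with EZH2i (GRB10, PHLDA2, PEG3, NDN), 3 lower (DLK1, MEST, SNRPN) and 3 not passed, against 21.7% higher and 22.2% lower of all genes. The MEST call there was lost without CBPi replicate 2 or EZH2i replicate 1 or 2 (edgeR adjusted p = 0.0857, 0.0899 and 0.0706) and with scaling by library size alone (0.056), and in the next comparison with scaling by library size alone (0.0774). Between EZH2i and FSK 4 were higher under EZH2i (GRB10, PEG3, PLAGL1, NDN), 4 lower (DLK1, PEG10, SNRPN, MEST) and 2 not passed, against 30.3% and 31.3%. Between CBPi and FSK 3 were higher under CBPi (GRB10, PEG3, PLAGL1), 3 lower (DLK1, PEG10, PHLDA2) and 4 not passed, against 29.3% and 29.5%. The widest of these gaps were PHLDA2 between CBPi and FSK (-1.55 ± 0.32; edgeR adjusted p = 0.00036), PEG3 between EZH2i and FSK (1.17 ± 0.05; edgeR adjusted p = 2.1e-14), PHLDA2 between EZH2i and CBPi (1.14 ± 0.32; edgeR adjusted p = 0.00773) and DLK1 between EZH2i and FSK (-1.05 ± 0.06; edgeR adjusted p = 3.21e-11). PEG3 and DLK1 thus parted under the treatments: PEG3 was lowest with forskolin, where DLK1 was highest.

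The imprinted neighbours of the members, a list of 34 genes of which 31 had a row and 25 were tested, gave 9 higher, 9 lower and 7 not passed under EZH2i (29.5% and 28.3% of all tested genes were higher and lower), 8, 8 and 9 under CBPi (29.8% and 29%), and 11, 5 and 9 under FSK (25.5% and 25.1%). Without baseline replicate 1 the CBPi comparison gave 5 higher. Their median log2 fold changes were -0.06, -0.10 and 0.12 in that order, against 0.02, 0.015 and 0.015 over all tested genes.

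**Figure D5:**
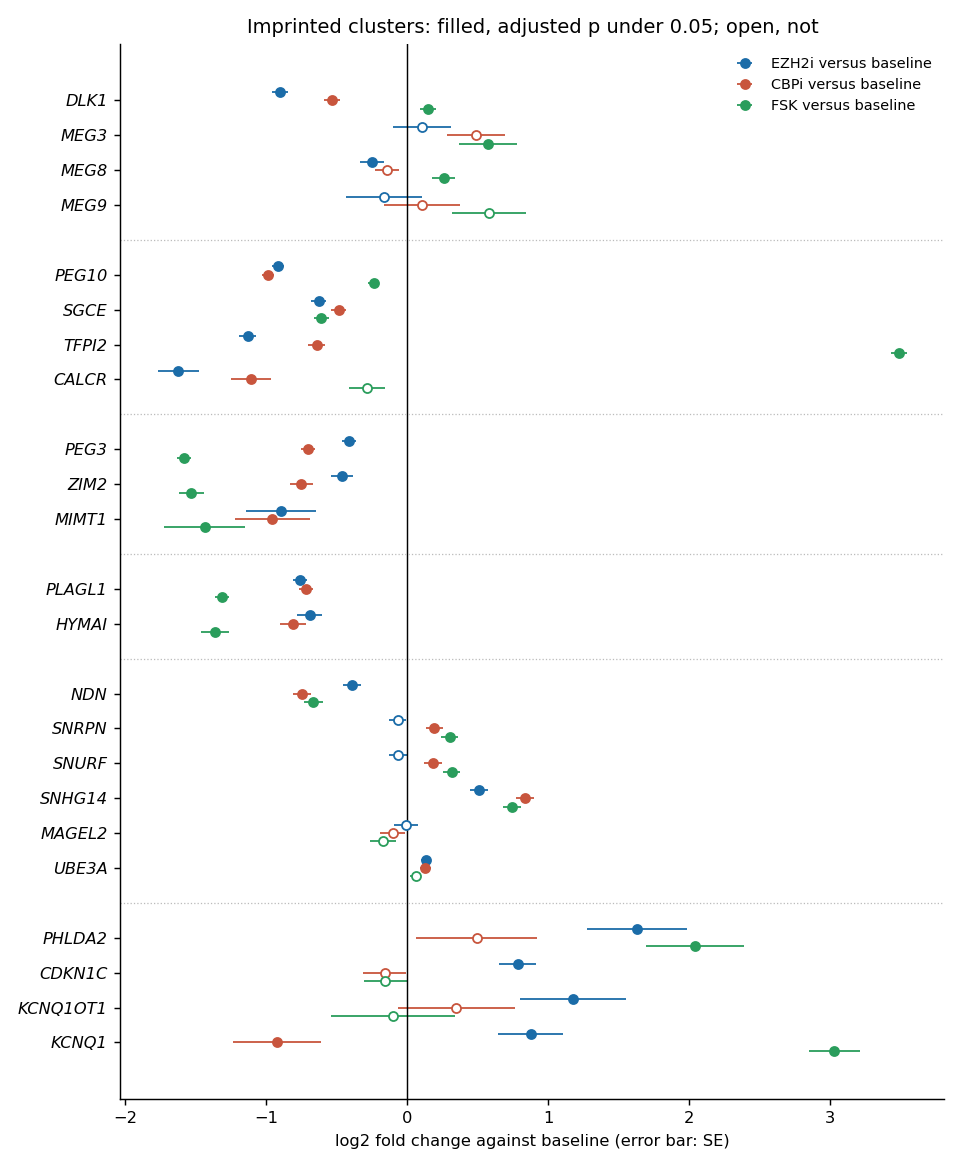
Log2 fold change against baseline (horizontal axis, bars give the SE) of members and named neighbours, grouped by cluster between dotted lines, for EZH2i (blue), CBPi (red) and FSK (green); filled points have an adjusted p under 0.05. The PEG3 and PLAGL1 clusters lie left of 0 throughout, while TFPI2 and KCNQ1 stand far right under FSK at 3.49 and 3.03.

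The steroid-producing character of the cells moved with the same treatments. All 8 adrenocortical markers fell with each inhibitor, and 7 of 8 rose under FSK. Their summed level was 1980 to 2050 CPM at baseline, 605 to 632 under EZH2i, 580 to 651 under CBPi and 3890 to 4090 under FSK. DLK1 had the same directions as that sum, although its small rise under FSK lost its call in most alternatives. PEG3, PLAGL1, PEG10, NDN and MEST did not have those directions, since they fell with forskolin too. The part of this change in the imprinted genes' values was not tested. Markers of other cell types also differed between groups, at low levels apart from CHGB (10.78 CPM per kb at baseline, where the median gene stood at 3.34). TH, DBH and PNMT of chromaffin cells were at or near 0 (group means of at most 0.0441 CPM). CHGB, a granin that other secretory cells also make, went from 47.9 ± 1.12 CPM at baseline to 57.9 ± 3.25 under EZH2i, to 93.5 ± 2.16 under CBPi and to 19.02 ± 0.925 under FSK, and CHGA had group means of 3.8 to 6.15 CPM. The 6 fibroblast markers summed to 33.8 to 35.8 CPM at baseline, 27.5 to 30.5 under EZH2i, 13.3 to 17.5 under CBPi and 16.2 to 17.2 under FSK. Of the 5 tested, 2 were called higher and 3 lower under FSK, so the sum hides opposite moves. LUM, 1 of the 2 called higher, passed the low-count filter only through its FSK libraries (133, 99 and 95 reads, at most 3 in any other). COL1A1 went from 16.4 to 6.52 CPM and COL3A1 from 15.7 to 3.48, while LUM went from 0.0397 to 4.61 and DCN from 0.715 to 1.66. The 4 endothelial markers summed to 0.368 to 0.958, 2.55 to 3.71, 0.348 to 0.58 and 0.941 to 1.24 CPM in the same order, and KDR among them rose 7.11-fold under EZH2i. With FSK KDR went from 0.428 to 0.0699 CPM, while VWF went from 0.101 to 0.94 CPM. The 4 immune markers summed to 0.0941 to 0.274, 0.43 to 0.525, 0.452 to 0.824 and 0.807 to 1.16 CPM, with PTPRC, CD3E and LYZ at or near 0. The part of these cell type markers in the imprinted genes' values was not tested. Library totals ran from 20.6 to 31.5 megacounts.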

How the data were processed

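NCI-H295R cultures were sequenced from poly(A)-selected NEBNext libraries, per the labels' protocols. The authors deposited 1 table of estimated counts per gene with gene lengths; STAR, featureCounts and hg38 are named in the submitters' processing notes, and their versions, the annotation, strand setting and multimapping rule were not given in the sources used here. Of the non-zero values 65.6% were whole within 1e-06, so the deposited counts were rounded before testing. Every count column belonged to 1 of the 12 samples, and replicate numbers follow accession order and pair nothing.

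Genes passing filterByExpr (minimum count 10; 20360 genes) were fitted in edgeR 4.0.16 (R 4.3.3) with TMM scaling, 4 groups and robust quasi-likelihood tests, with Benjamini-Hochberg adjustment over all of them and a threshold of 0.05; a second test (glmTreat) asked for a change beyond 1.5-fold. CPM and CPM per kb are means of TMM-scaled values ± SD, and fold changes are log2 ± SE. The typical biological coefficient of variation was 4.98%. Code was tested on simulated counts. Alternatives were DESeq2 1.42.0, limma 3.58.1 voom, RLE scaling, library size only, no filter, 2 groups only, each library left out and a fold of 2. Sequences come from RefSeq, positions from GENCODE 29. The deposited length equals the GENCODE 29 exon union for 7 of 10 members.

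The members and lists were chosen with earlier results of these data known. Named are all members, neighbours set beside them, SNRPB as the SNRPN paralogue, and up to 4 genes per list and comparison with baseline by size of change among those passed. OSBPL5, SLC22A18, DIO3, MEG9, MALAT1, NEAT1, KDR, VWF, COL1A1, COL3A1, LUM and DCN were named after their values were seen. P-values measure the spread between cultures of 1 line. A chromaffin marker of the lists is not reported here.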

Additional observations from a re-analysis of the deposited data

How the results depend on the processing

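Of the 30 fold changes of members against baseline, 26 were called, and 4 of these lost the call under at least 1 alternative: DLK1, MEG3 and MEST under FSK and SNRPN under CBPi. Scaling moved the median of all genes by little, to -0.054 for FSK with library size only. MEG3 has a wide spread that the robust fit took from the gene itself (prior degrees of freedom 0.61 against a median of 11.5); without the filter the prior degrees of freedom were infinite for every gene, and MEG3 under CBPi passed (0.487; edgeR adjusted p = 8.35e-25). No paired analysis was possible because the labels give no replicate numbers.

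With library size only, members higher under FSK numbered 3, maintenance factors higher under FSK 1 and neighbours lower under FSK 8; MEST between CBPi and FSK turned to 0.0142. A fold of 2 left 1 member higher and 0 lower under EZH2i, 0 lower under CBPi and 1 higher under FSK. With only the 2 groups, maintenance factors lower under EZH2i numbered 2 and genes at other loci lower under EZH2i 2; RLE scaling gave 2 for the former. The cause of these moves was not tested.

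Leaving out 1 library at a time gave, against baseline under EZH2i, 5 to 8 maintenance factors higher, 1 to 2 genes at other loci lower and 1 to 2 members past 1.5-fold higher. With CBPi it gave 1 to 2 members higher, 1 to 4 members past 1.5-fold lower, 5 to 9 neighbours higher and 0 to 1 gene at other loci lower, and under FSK 3 to 4 members higher. Uncalled log2 differences that changed sign were MEG3 between CBPi and FSK (-0.308 to 0.0804, with 0.021 and 0.00189 without CBPi replicates 1 and 3), NDN between CBPi and FSK (-0.133 to 0.0145), PLAGL1 between EZH2i and CBPi (-0.0756 to 0.0251) and PHLDA2 between CBPi and baseline (-0.152 to 0.781). PHLDA2, at 5 to 55 reads a library, is the member that depth limits.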

Other observations

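Genes listed as imprinted at other loci were more often higher than lower under both inhibitors. Whether each of them is imprinted in this line was not measured. Of 28 listed, 23 were tested: 9 were higher, 1 lower and 13 not passed under EZH2i, 12, 0 and 11 under CBPi, and 6, 4 and 13 under FSK, against 29.5% and 28.3%, 29.8% and 29%, and 25.5% and 25.1% of all genes higher and lower, with median log2 fold changes of 0.23, 0.22 and 0.08 against 0.02, 0.015 and 0.015 over all genes. The 0 lower under CBPi is by edgeR's adjusted p, and it was also 0 at an unadjusted p under 0.05, with DESeq2 and with limma voom, but 1 without CBPi replicate 2; under EZH2i 2 were lower without baseline replicate 2. IGF2R, the receptor that carries IGF2 to the lysosome, rose under all 3, from 249.1 ± 12.3 CPM to 401.9 ± 28.5 under EZH2i, 548.1 ± 19 under CBPi and 343.3 ± 18.7 under FSK (log2 0.69, 1.14 and 0.46; edgeR adjusted p = 9.84e-10, 4.59e-13 and 3.44e-07). ZNF331, a zinc finger gene, rose by 0.60, 0.63 and 0.84. ZDBF2 rose under EZH2i and CBPi by 0.32 and 0.71. NTM, a neural adhesion protein, rose under EZH2i by 0.73 and fell under FSK by 0.75, and RB1, the retinoblastoma tumour suppressor, fell under FSK by 0.78 (edgeR adjusted p = 4.62e-08). KCNK9, a potassium channel, rose under EZH2i by 0.92 and under FSK by 1.01, from 1.95 ± 0.302 CPM (edgeR adjusted p = 7.89e-05 and 4.81e-05). PURG was sparse and fell under FSK from 0.488 ± 0.108 to 0.071 ± 0.0637 CPM (log2 -2.69; edgeR adjusted p = 0.00183). GLIS3, a zinc finger factor, rose under CBPi by 0.78 (edgeR adjusted p = 0.0248), a call lost with DESeq2 (adjusted p = 0.0672) and without baseline replicate 1 or 2 or CBPi replicate 1 (edgeR adjusted p = 0.0965, 0.0513 and 0.159).

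Of 18 factors that set or keep imprints, 13 were tested. With EZH2i 8 were higher, 1 lower and 4 not passed, under CBPi 4, 5 and 4, and under FSK 2, 6 and 5, where 29.5% and 28.3%, 29.8% and 29%, and 25.5% and 25.1% of all tested genes were higher and lower. Without baseline replicate 3 the EZH2i comparison gave 5 higher. UHRF1, which brings the maintenance methyltransferase to replicating DNA, fell from 115.2 ± 3.35 CPM to 87.9 ± 1.21 under EZH2i, 60.8 ± 3.35 under CBPi and 88.4 ± 2.41 under FSK (log2 -0.39, -0.92 and -0.38; edgeR adjusted p = 3.86e-07, 1.73e-12 and 6.98e-07). DNMT3B, a de novo methyltransferase, fell by 0.91 under CBPi and 0.93 under FSK, and TRIM28, the corepressor that zinc finger proteins bring to imprints, fell by 0.38 under CBPi. EHMT1, a histone H3 lysine 9 methyltransferase, fell by 0.42 under CBPi and 0.41 under FSK (edgeR adjusted p = 6.15e-07 and 9.23e-07), while its partner EHMT2 rose under EZH2i by 0.35 and DNMT3A by 0.27 (edgeR adjusted p = 8.45e-06 and 0.000104). ARID4A, a chromatin-binding protein, fell under FSK by 0.55 (edgeR adjusted p = 3.61e-08). ZNF445, a zinc finger protein that guards imprints, rose by 0.36, 0.26 and 0.19 (under FSK not called with scaling by library size alone, edgeR adjusted p = 0.0837), and ZFP57 was at a mean of at most 0.0152 CPM and was not tested. DNA methylation was not measured in these libraries.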
